A study of Mus musculus with 12 samples.

Results

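Leukocyte adhesion receptors of the endothelium were followed through lung lymphatic endothelial cells (LECs) of mice exposed to cigarette smoke (CS) or kept in room air (RA). The 8 genes were taken by name, with earlier results of these data known, and were Vcam1, Icam1, Icam2, Sele, Selp, Alcam, Cd34 and Cd99l2. Each symbol matched 1 Ensembl identifier, out of 52636 identifiers in the count files, of which 52489 carry a name in GENCODE M21. The mice carried Prox1-EGFP, a transgene in which regulatory sequence of the lymphatic transcription factor Prox1 drives green fluorescent protein, and both RA and CS mice carried it. CS exposure began at 6 weeks of age and was whole-body, and controls were age-matched mice in RA. Acute exposure lasted 8 weeks and chronic exposure at least 24 weeks by the study's methods, while the labels give 8 weeks as the age of the acute mice, which differs from a start at 6 weeks followed by 8 weeks of exposure, and call the chronic mice aged. Lung cells negative for EPCAM and hematopoietic lineage markers and positive for CD31 and GFP were sorted, and RNA was amplified and sequenced from 2 acute RA libraries (F and M), 2 acute CS libraries (M and F), 3 chronic RA libraries (M1, M2 and F) and 5 chronic CS libraries (F, M1, M2, M3 and M4). F and M stand for female and male. Each acute library pooled the LECs of 2 to 5 mice and the chronic libraries were not pooled, and the acute mice were younger, so pooling, age and length of exposure cannot be told apart.

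Leukocytes leave the blood in steps: selectins on the endothelium catch and roll them, integrins on the leukocyte then bind immunoglobulin-family receptors such as VCAM-1 and ICAM-1, and junctional proteins take part as the cell crosses the wall. Inflammatory cytokines acting through NF-kB are known to raise E-selectin, VCAM-1 and ICAM-1 in endothelium, and P-selectin is stored in granules of venous endothelium and of platelets. Lymphatic endothelium uses some of the same receptors for cells entering lymph, while selectins and CD34 are better known from blood vessels.

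All 12 libraries held the lymphatic genes, and CS libraries at both time points also held more of some genes that mark other cells. Total counts ran from 18821438 to 56998590. Prox1 stood at 1262 counts per 1000000 counts (CPM, on library sizes adjusted by edgeR's TMM method) in acute CS M and at 1041 in acute CS F, against 2476 in acute RA M and 2238 in acute RA F. Summed over the 8 lymphatic markers, the level was 9817 and 6481 CPM in acute CS against 15250 and 17061 CPM in acute RA. One of the 8, the hyaluronan receptor gene Lyve1, stood higher in acute CS M and F (985 and 568 CPM) than in acute RA F and M (442 and 536 CPM) without being called (adjusted p = 0.307, edgeR's quasi-likelihood test). The 12 blood endothelial markers summed to 6862 and 7351 CPM in acute CS against 2915 and 3726 CPM in acute RA, and 8 leukocyte markers to 1626 and 2274 CPM against 133 and 126 CPM. Of all the marker sums that of 7 alveolar macrophage markers differed most by fold, at 1732 and 1767 CPM in acute CS M and F against 107 and 46.7 CPM in acute RA F and M, and 8 lymphoid markers summed to 258 and 193 CPM against 26.0 and 26.5 CPM. In chronic CS the macrophage sum was 57.1 to 354 CPM against 17.6 to 93.0 CPM in chronic RA, with overlap. In chronic CS the sums of alveolar type 2 (1095 to 4684 CPM), alveolar type 1 (82.1 to 310 CPM) and mesenchymal markers (212 to 353 CPM) lay above those of chronic RA (448 to 672, 24.6 to 40.3 and 121 to 148 CPM) without overlap, whereas the blood endothelial and lymphatic sums overlapped. Most of the blood endothelial sum was Plvap, a diaphragm protein of fenestrated endothelium, at 2688 to 2784 of 3430 to 3520 CPM in chronic RA. Among the 12 single markers, 5 were higher and 1 lower in chronic CS at an unadjusted p under 0.05 by edgeR's quasi-likelihood test. Over all genes tested, 5.57% were higher and 5.35% lower at that limit, and 0 of the 12 markers were called. Bulk RNA cannot tell apart fewer cells of a type from less RNA per cell. Vcam1, Icam1, Selp, Cd34 and Cd99l2 overlap a gene on the opposite strand, and without a stated strand setting the reads of such a pair cannot be told apart either.

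The 8 genes spanned a wide range of levels. On a scale per length of exon (FPKM), which lets genes be compared, Icam2 was the highest in acute RA at 202 ± 21.4 (SD, n = 2). Icam1 at 14.2 ± 1.10 FPKM and Cd99l2 at 13.7 ± 1.26 FPKM were next and did not differ beyond their spread, and Cd34 followed at 8.16 ± 0.42 FPKM. Vcam1 at 1.69 ± 0.49 FPKM and Alcam at 1.37 ± 0.13 FPKM were neighbours within their spread, as were Sele at 0.57 ± 0.18 FPKM and Selp at 0.40 ± 0.23 FPKM. In acute CS the order below Icam2 (335 ± 45.8 FPKM) and Icam1 (69.7 ± 16.7 FPKM) was Cd34 at 38.8 ± 8.85 FPKM, Vcam1 at 26.2 ± 13.2 FPKM, Cd99l2 at 13.2 ± 0.37 FPKM, Selp at 8.40 ± 2.62 FPKM, Sele at 4.69 ± 3.25 FPKM and Alcam at 2.93 ± 3.27 FPKM. Cd34 stood above Cd99l2 in acute CS and below it in acute RA, while Vcam1 and Cd99l2 were within their spread of each other in acute CS. The last 3 genes of the acute CS order overlapped in their spread. In chronic RA and chronic CS, Icam2 at 191 and 162 FPKM and Icam1 at 24.7 and 25.3 FPKM again led, and the 2 selectins were lowest, with Sele at 0.41 and 0.71 FPKM and Selp at 0.69 and 0.89 FPKM.

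**Figure D1:**
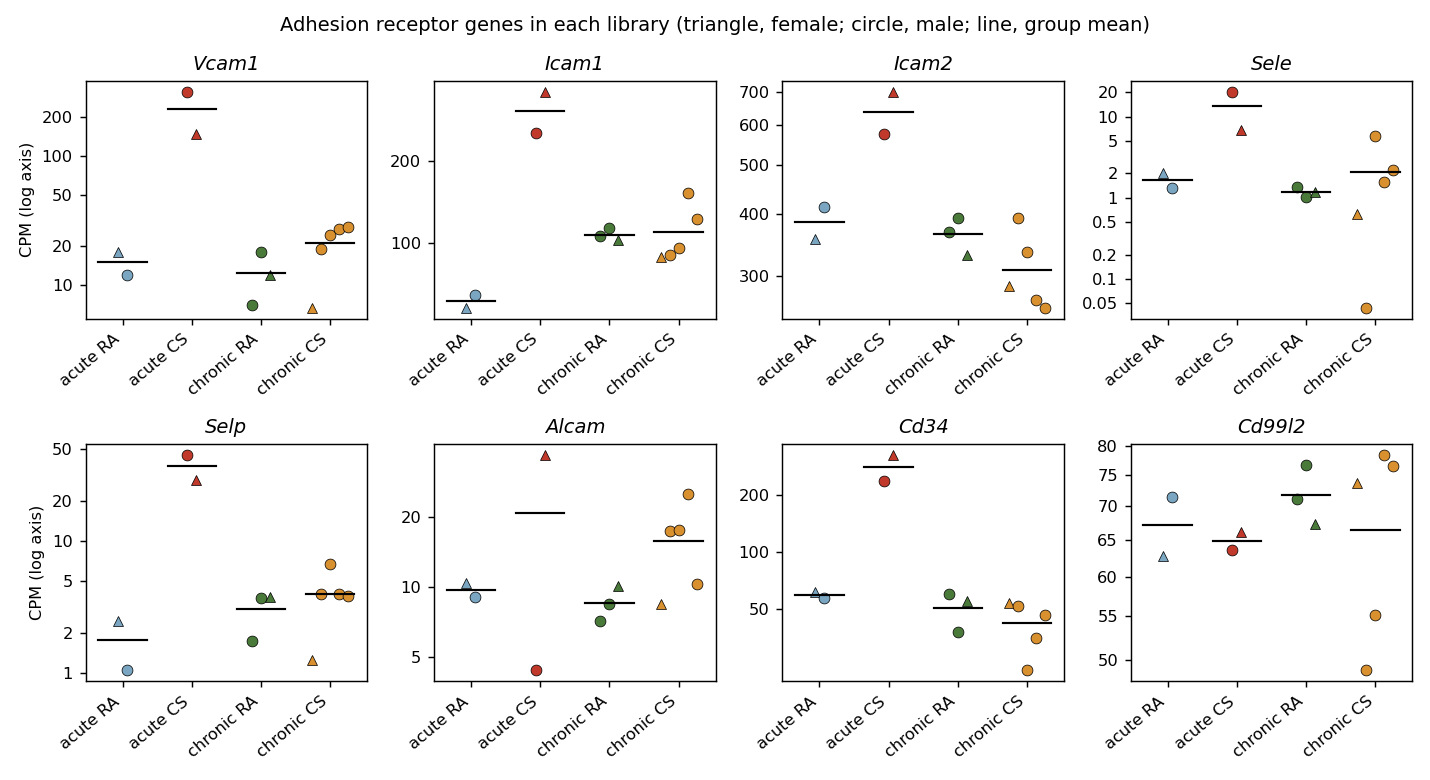
CPM of each of the 8 genes (vertical log axis, with its own range in each panel) in the 12 libraries by group, with triangles for female and circles for male libraries and a line at the group mean. Vcam1, Icam1, Icam2, Sele, Selp and Cd34 are higher in both acute CS libraries than in both acute RA libraries, and the chronic groups overlap for all 8 genes.

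Vcam1 (ENSMUSG00000027962, chromosome 3, 116109949 to 116129688, minus strand, GRCm38) encodes VCAM-1, the endothelial ligand of the integrin VLA-4. Its level was 18.1 and 11.9 CPM in acute RA F and M, and 315 and 150 CPM in acute CS M and F. Both acute CS libraries were high and the groups did not overlap. Vcam1 rose by a log2 fold change of 3.95 (SE 0.67), 15.5-fold on group means, with adjusted p = 0.0106 by the quasi-likelihood test of edgeR, adjusted by Benjamini-Hochberg over 21440 genes, the test behind every adjusted p below.

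Icam1 (ENSMUSG00000037405, chromosome 9, 21015985 to 21028817, plus strand) encodes ICAM-1, a ligand of the leukocyte integrins LFA-1 and Mac-1. Its level was 58.3 and 65.1 CPM in acute RA F and M, and 252 and 355 CPM in acute CS M and F. The 2 RA libraries lay close together and both CS libraries lay well above them. Icam1 rose by a log2 fold change of 2.30 (SE 0.27, adjusted p = 0.00364, edgeR's quasi-likelihood test), or 4.92-fold on group means. Icam2 (ENSMUSG00000001029, chromosome 11, 106377656 to 106388075, minus strand), which encodes ICAM-2, an LFA-1 ligand that resting endothelium carries, stood at 356 and 413 CPM in acute RA F and M and at 576 and 700 CPM in acute CS M and F. The groups did not overlap, yet the log2 difference of 0.73 (SE 0.20) had an adjusted p = 0.0754 by edgeR's quasi-likelihood test and was not called. DESeq2 did call Icam2 (log2 difference 0.74, adjusted p = 0.00927).

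The 2 endothelial selectin genes are neighbours on chromosome 1, Sele (ENSMUSG00000026582) at 164048234 to 164057677 and Selp (ENSMUSG00000026580) at 164115264 to 164150026, both on the plus strand. Selp encodes P-selectin and stood at 2.48 and 1.04 CPM in acute RA F and M, and at 45.3 and 28.9 CPM in acute CS M and F. Selp was near its lowest level in both RA libraries and high in both CS libraries. It rose by a log2 fold change of 4.39 (SE 0.75, adjusted p = 0.0109, edgeR's quasi-likelihood test), the largest among the 8 genes. Sele encodes E-selectin and stood at 2.03 and 1.30 CPM in acute RA F and M, and at 20.3 and 6.96 CPM in acute CS M and F. The Sele groups did not overlap, but the acute CS libraries lay far apart, and the log2 difference of 3.03 (SE 1.35) had an adjusted p = 0.303 by edgeR's quasi-likelihood test.

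Cd34 (ENSMUSG00000016494, chromosome 1, 194938819 to 194961279, plus strand) encodes a sialomucin of vascular endothelium and progenitor cells that can carry sugars bound by L-selectin. Its level was 61.6 and 57.3 CPM in acute RA F and M and 237 and 329 CPM in acute CS M and F. Both acute CS libraries were high, and Cd34 rose by a log2 fold change of 2.25 (SE 0.36, adjusted p = 0.00878, edgeR's quasi-likelihood test).

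Alcam (ENSMUSG00000022636, chromosome 16, 52248996 to 52454074, minus strand) encodes CD166, a ligand of the lymphocyte receptor CD6 that epithelia express too. It stood at 10.5 and 9.10 CPM in acute RA F and M, at 4.38 CPM in acute CS M and at 37.3 CPM in acute CS F. One acute CS library was thus below both RA libraries and the other above them, and the log2 difference of 1.09 (SE 0.75) had an adjusted p = 0.571 by edgeR's quasi-likelihood test. Cd99l2 (ENSMUSG00000035776, chromosome X, 71420060 to 71492849, minus strand), whose product takes part in transmigration at endothelial junctions, stood at 62.8 and 71.5 CPM in acute RA F and M and at 63.6 and 66.2 CPM in acute CS M and F. Its log2 difference was -0.05 (SE 0.22, adjusted p = 0.97, edgeR's quasi-likelihood test).

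Of the 8 genes, 4 were called higher in acute CS (Vcam1, Icam1, Selp and Cd34) and 0 lower, against a background of 2.75% of all genes tested called higher and 0.723% called lower. All 8 passed the filter on low counts. In 6 of the 8 the acute groups did not overlap with CS higher, where 27.4% of all genes tested did so, and in 0 with CS lower, where 22.5% did so. The median log2 difference of the 8 genes was 2.28, beside 0.041 over all genes tested. Since the genes were chosen with results known, these shares are a description. With 2 libraries against 2, the exact two-sided permutation test on the log2 CPM of a single gene gave 0.333 for each of the 6 genes, which is the smallest p it allows. The calls rest on the spread shared over all 12 libraries and on few libraries. Without acute RA M 0 of the 8 genes were called (adjusted p = 0.0746 for Icam1 to 0.141 for Vcam1 among the 4), and without acute RA F Icam1 alone was called (adjusted p = 0.0466), by edgeR's quasi-likelihood test. Without acute CS F Cd34 was not called (adjusted p = 0.0601), and in a fit of the 4 acute libraries alone Icam1 and Cd34 were called, while Vcam1 had an adjusted p = 0.0585 and Selp 0.0659 by the same test. In the fit of all 12 libraries a p-value sets the group difference against a shared spread that rests mostly on chronic libraries, which were not pooled. It does not measure the spread between acute pools or between acute mice.

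**Figure D2:**
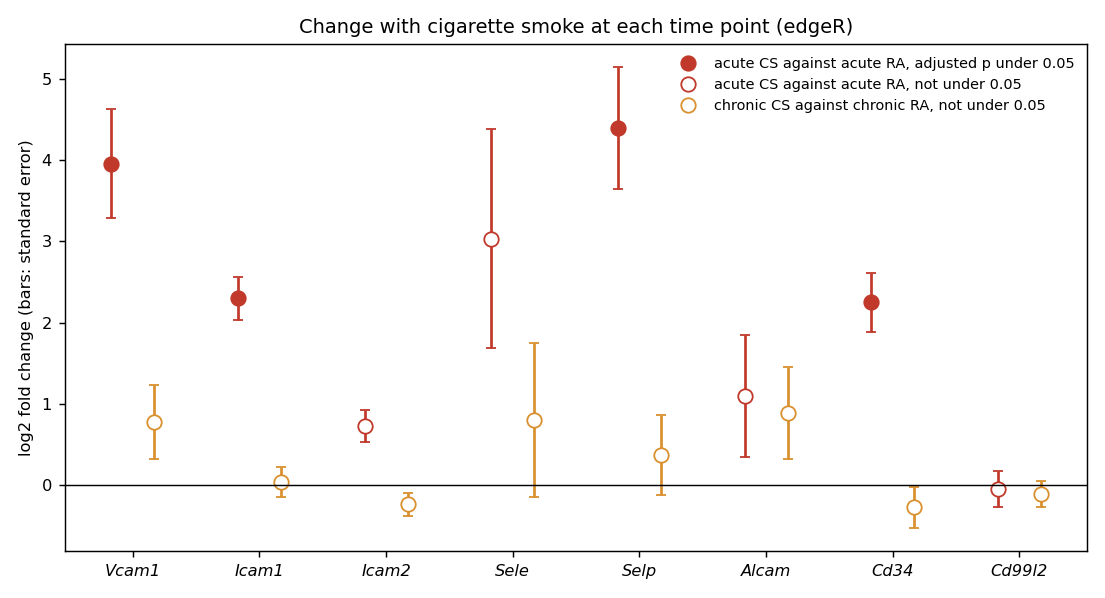
Log2 fold change of each gene with CS against RA (vertical axis) with its standard error, for the acute comparison in red and the chronic comparison in orange, where filled points have an adjusted p under 0.05. The 4 filled points are Vcam1 (3.95), Icam1 (2.30), Selp (4.39) and Cd34 (2.25), all acute.

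Promoter sequence from the RefSeq annotation of GRCm38.p6 was present for 6 of the 8 genes, and 4 are printed. Icam1, Selp and Cd34 were called higher in acute CS. Sele was not called, although its acute log2 difference was larger than those of Icam1 and Cd34, so the 4 do not set risen genes against others. Each is the plus strand of the 250 bases before the annotated start, with capitals for motif matches. The motifs, searched on both strands, were a loose NF-kB form GGNNNTTCC (in 15.7% of all 32851 promoter windows), the AP-1 motif TGANTCA (6.7%), the GC box GGGCGG (32.7%) and the TATA box TATAAA (12.4%). The loose form was chosen after the stricter NF-kB consensus, found in 7.3% of the windows, had no match in the 6 genes.
Icam1, chr9:21015690-21015939: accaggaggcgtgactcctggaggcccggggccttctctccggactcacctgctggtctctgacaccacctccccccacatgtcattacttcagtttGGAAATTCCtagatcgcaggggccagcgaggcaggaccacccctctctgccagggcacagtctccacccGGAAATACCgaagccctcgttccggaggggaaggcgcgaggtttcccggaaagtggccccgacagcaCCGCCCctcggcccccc
Sele, chr1:164047984-164048233: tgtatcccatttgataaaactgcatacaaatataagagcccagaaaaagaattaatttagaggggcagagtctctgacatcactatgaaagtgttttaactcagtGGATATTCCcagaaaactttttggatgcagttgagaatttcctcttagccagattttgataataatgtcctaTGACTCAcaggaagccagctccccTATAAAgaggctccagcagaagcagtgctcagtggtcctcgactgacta
Selp, chr1:164115014-164115263: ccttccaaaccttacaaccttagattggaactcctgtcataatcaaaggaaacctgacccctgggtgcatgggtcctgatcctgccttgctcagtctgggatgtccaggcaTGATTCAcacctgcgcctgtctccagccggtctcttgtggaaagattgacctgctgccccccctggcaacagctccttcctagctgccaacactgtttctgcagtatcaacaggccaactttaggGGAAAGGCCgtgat
Cd34, chr1:194938571-194938820: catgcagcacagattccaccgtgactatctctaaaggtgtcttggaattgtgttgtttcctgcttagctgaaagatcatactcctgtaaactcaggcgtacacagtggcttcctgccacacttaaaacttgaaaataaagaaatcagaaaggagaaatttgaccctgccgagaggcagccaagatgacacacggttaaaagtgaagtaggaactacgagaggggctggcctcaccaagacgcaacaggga
Icam1 held the loose NF-kB form at -153 to -145 and, on the minus strand, at -84 to -76, and a GC box at -17 to -12, counted back from the start. Sele held the loose form at -145 to -137, an AP-1 motif at -73 to -67 and a TATA box at -49 to -44. Selp held an AP-1 motif at -139 to -133 and, on the minus strand, the loose form at -14 to -6. The Cd34 window held none of these letter patterns. The windows of Alcam and Cd99l2, not printed, held GC boxes only, and Vcam1 and Icam2 had no window. A match is a description of the letters and not a binding site.

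Set against blood endothelial markers, the receptors fell into separate patterns in acute CS. A blood endothelial score, the mean log2 CPM of the 12 markers, was 7.46 in acute CS M and 7.86 in acute CS F, above the range of 5.09 to 6.07 in the other 10 libraries, with a mean difference of 2.27 between the acute groups. Icam1 and Cd34 rose by nearly the same amount as this score, with log2 differences of 0.01 and -0.04 after it was subtracted. Selp exceeded the score by 2.17 and Vcam1 by 1.61, whereas Icam2 fell short of it by a log2 difference of -1.54, Alcam of -1.88 and Cd99l2 of -2.32. Sele minus the score was -3.11 in acute CS M and -5.05 in acute CS F, on either side of acute RA F at -4.57 and M at -4.72, so it had no common direction. Per 1000 CPM of summed blood endothelial markers, Vcam1 stood at 45.9 and 20.4 CPM in acute CS M and F against 6.20 and 3.20 in acute RA F and M. Selp stood at 6.59 and 3.93 against 0.85 and 0.28 on that scale. Icam1 and Cd34 were also higher on it, Icam1 at 36.8 and 48.3 against 20.01 and 17.5 and Cd34 at 34.6 and 44.7 against 21.1 and 15.4, since the sum was 2.14-fold higher in acute CS and thus differed by less than the score. Plvap alone gave 2126 and 3052 CPM of the sum in acute RA F and M, and 3005 and 2717 CPM in acute CS M and F. The values per summed marker CPM thus lean on Plvap. Whether these 2 genes kept pace with the blood endothelial markers therefore depends on how the markers are combined. Single blood endothelial markers ranged from a log2 difference of 0.14 for Plvap to 4.98 for Vwf, the clotting protein von Willebrand factor, so Vcam1 and Selp lay within the range of the markers. The part of the marker levels in these results was not tested apart from the fits with a score, below.

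With the blood endothelial score as a covariate the acute log2 differences became 0.83 (SE 1.78) for Vcam1, 1.01 (SE 0.75) for Icam1, 0.31 (SE 1.76) for Selp and 4.14 (SE 1.01) for Cd34, and with the leukocyte score 1.60 (SE 1.63), 1.41 (SE 0.63), 0.87 (SE 1.5) and 3.39 (SE 0.87). The differences of Sele and Alcam turned negative, Sele to -1.69 (SE 3.97) with the blood endothelial and -0.78 (SE 3.22) with the leukocyte score, and Alcam to -3.92 (SE 2.20) and -2.69 (SE 1.72). In both fits 0 of the 8 genes and 0 of all 21440 genes were called. The acute CS libraries lay outside the range of the other libraries in both scores, so the score and acute CS can hardly be told apart in such a fit.

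The acute CS libraries differed between themselves in which receptor was high. Over the acute RA mean, Vcam1 was 21-fold in M and 9.97-fold in F, Selp 25.7-fold and 16.4-fold, and Sele 12.2-fold and 4.18-fold. Icam1 was 4.09-fold in M and 5.76-fold in F, Cd34 3.99-fold and 5.52-fold, and Icam2 1.5-fold and 1.82-fold. Vcam1 and both selectins were thus higher in M, and Icam1, Icam2 and Cd34 higher in F. The sum of blood endothelial markers was 2.07-fold in M and 2.21-fold in F, that of leukocyte markers 12.6-fold and 17.6-fold and that of mesenchymal markers, such as the collagen gene Col1a1, 5.96-fold and 3.80-fold. Alveolar type 2 markers, led by the surfactant gene Sftpc, were 0.298-fold in M and 6.11-fold in F, and Alcam at 0.448-fold and 3.82-fold split the same way. Platelet markers were 1.24-fold in M and 3.78-fold in F, on low sums of 17.3 and 52.6 CPM against 12.3 and 15.5 CPM in acute RA F and M. Platelets also carry Selp, and which cells its RNA came from was not tested. With 1 library each, no test of these differences was made.

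**Figure D3:**
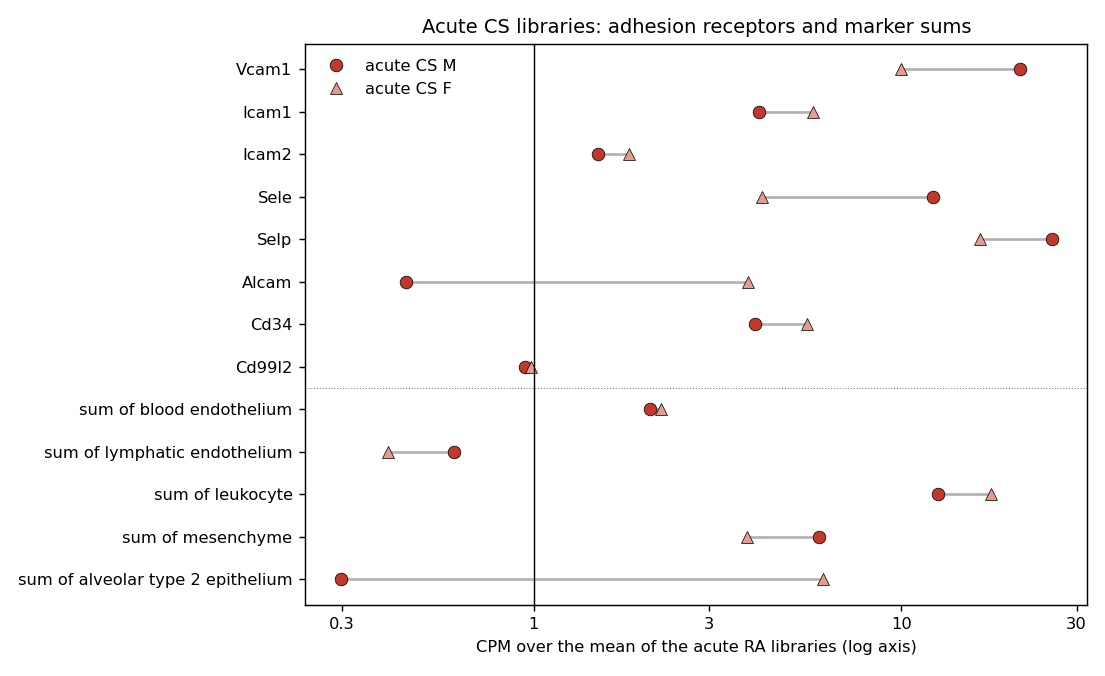
CPM in acute CS M (circles) and acute CS F (triangles) divided by the acute RA mean (horizontal log axis), for the 8 genes and for 5 sums of cell type markers below the dotted line. Vcam1, Sele and Selp lie farther right in M, Icam1, Icam2 and Cd34 in F, and Alcam and the alveolar type 2 sum cross 1.

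In the chronic comparison, which asks whether the receptors also differed after at least 24 weeks of CS, 0 of the 8 genes were called and 0% of all genes tested were called in either direction, with 2341 genes at an unadjusted p under 0.05 and 524 genes called by DESeq2. Vcam1 stood at 7.03, 18.1 and 11.9 CPM in chronic RA M1, M2 and F and at 6.67, 18.9, 24.3, 27.2 and 28.3 CPM in chronic CS F, M1, M2, M3 and M4. The 4 male CS libraries were above all RA libraries and the female one below them. Its log2 difference was 0.78 (SE 0.45, adjusted p = 0.546, edgeR's quasi-likelihood test). Icam1 stood at 106, 113 and 103 CPM in chronic RA M1, M2 and F and at 89.2, 90.7, 96.3, 153 and 122 CPM in chronic CS F, M1, M2, M3 and M4. Of the CS libraries 3 were below and 2 above all RA libraries, and the log2 difference was 0.03 (SE 0.19, adjusted p = 0.964, edgeR's quasi-likelihood test). The 3 below, F, M1 and M2, had total counts of 18821438 to 22885446, and M3 and M4 had 47494020 and 45436986. The part of sequencing depth in this split was not tested.

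Selp stood at 1.73, 3.66 and 3.76 CPM in chronic RA M1, M2 and F and at 1.26, 3.96, 6.69, 3.99 and 3.84 CPM in chronic CS F, M1, M2, M3 and M4. As for Vcam1, the female CS library was the lowest of all. Sele stood at 1.35, 1.01 and 1.19 CPM in chronic RA and at 0.63, 0.04, 5.86, 1.59 and 2.19 CPM in the same CS order, the second of these resting on 1 count, below the 3 counts taken as a floor. The Sele libraries of chronic CS thus spread widely around the narrow RA range. The log2 differences were 0.37 (SE 0.49) for Selp and 0.80 (SE 0.95) for Sele, and neither was called. For Sele the sign rested on chronic CS M2, without which the difference was -0.06, and it was -0.73 with a replicate block on the sex and number of each library. Alcam stood at 7.17, 8.46 and 10.1 CPM in chronic RA and at 8.45, 17.6, 17.7, 25.3 and 10.3 CPM in chronic CS, with log2 difference 0.89 (SE 0.56, adjusted p = 0.582, edgeR's quasi-likelihood test). Its exact two-sided permutation p was 0.107, where 0.0357 is the smallest that 5 libraries against 3 allow. The chronic CS libraries with the highest and the lowest Alcam, M3 and F, also had the highest and the lowest alveolar type 2 sums, 4684 and 1095 CPM.

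Cd34 stood at 59.9, 37.6 and 55.2 CPM in chronic RA M1, M2 and F and at 54.2, 51.8, 23.7, 35 and 46.4 CPM in chronic CS F, M1, M2, M3 and M4. Icam2 stood at 368, 391.6 and 331 CPM in chronic RA and at 287, 391.6, 335, 270 and 260 CPM in chronic CS. Cd99l2 stood at 71.1, 76.7 and 67.3 CPM in chronic RA and at 73.6, 48.8, 55.1, 78.4 and 76.5 CPM in chronic CS. The groups of these 3 genes overlapped, with log2 differences of -0.27 (SE 0.25), -0.24 (SE 0.14) and -0.11 (SE 0.16). In all, 0 of the 8 genes had chronic groups that did not overlap, where 3.92% of all genes tested had CS higher and 5.49% CS lower without overlap. The median chronic log2 difference of the 8 genes was 0.205, beside 0.014 over all genes tested.

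The uncalled chronic differences depended on the marker scores. With the blood endothelial score as a covariate the log2 difference was 0.05 (SE 0.55) for Vcam1, and it turned negative for Icam1 at -0.25 (SE 0.23), Sele at -0.67 (SE 1.45), Selp at -0.63 (SE 0.56) and Alcam at -0.21 (SE 0.63), while Cd34 turned positive at 0.12 (SE 0.30). With the leukocyte score it was 0.11 (SE 0.60) for Vcam1 and negative for Icam1 (-0.18), Sele (-0.40), Selp (-0.58), Alcam (-0.03) and Cd34 (-0.05). None of these was called.

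A test of the difference between the acute and the chronic CS effect called 2 of the 8 genes, both with the larger effect in acute CS, where 0.401% of all genes tested were called in that direction and 0.0513% in the other. For Icam1 the effects differed by 2.27 (SE 0.32, adjusted p = 0.0333) and for Cd34 by 2.52 (SE 0.44, adjusted p = 0.0406) on the log2 scale by edgeR's quasi-likelihood test. Selp at 4.02 (SE 0.85, adjusted p = 0.0727), Vcam1 at 3.18 (SE 0.76, adjusted p = 0.103) and Icam2 at 0.97 (SE 0.24, adjusted p = 0.121) were not called by the same test. With the blood endothelial score as a covariate the difference became 1.27 (SE 0.63) for Icam1 and 4.02 (SE 0.86) for Cd34, and with the leukocyte score 1.59 (SE 0.53) and 3.45 (SE 0.78), none of them called. For Alcam the difference was 0.21 (SE 0.92) and for Cd99l2 0.06 (SE 0.27). Leaving out 1 library at a time gave between 0 and 3 called genes.

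Between RA groups, 0 of the 8 genes were called, as were 0% of all genes tested in either direction, with 1504 genes at an unadjusted p under 0.05 and 253 called by DESeq2. Icam1 was the gene of the 8 whose RA groups did not overlap, at 58.3 and 65.1 CPM in acute RA against 103 to 113 CPM in chronic RA, and 17.7% of all genes tested were higher and 17% lower in chronic RA without overlap. Its log2 difference was 0.80 (SE 0.24, adjusted p = 0.513, edgeR's quasi-likelihood test). The lower acute RA level of Icam1 enters its acute fold change: both acute CS levels, 252 and 355 CPM, were also above the chronic RA mean of 108 ± 5.24 CPM (SD, n = 3).

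Whether each receptor followed blood endothelial markers was then read within groups, since acute CS stood apart and a correlation over all libraries would restate that. The log2 slope per unit of the score was 1.91 (SE 0.77) for Selp, 2.06 (SE 0.87) for Alcam, 1.45 (SE 0.78) for Vcam1 and -0.83 (SE 0.42) for Cd34. Icam1 at 0.55 (SE 0.31) and Sele at 2.20 (SE 1.78) were positive too. Icam2 at -0.02 (SE 0.27) and Cd99l2 at -0.02 (SE 0.30) had slopes near 0. Of the 8 slopes 0 were called, as were 0% of all genes tested in either direction (1337 at an unadjusted p under 0.05), with an adjusted p of 0.759 for Selp and 0.772 for Alcam by edgeR's quasi-likelihood test. The score weighs each marker alike, also Ackr1, which lay near the floor. Ackr1 stood at 1.18 and 0 CPM in acute RA F and M, at up to 1.64 CPM in chronic RA and up to 0.66 CPM in chronic CS. Its own slope was 7.35 (SE 3.53), the steepest of the markers, and its part in the slopes is not given apart here. The slopes depended on how the score was built, and a sum of the markers leans on Plvap. With the log2 of the summed CPM of the same markers in place of the mean log2 CPM, those of Vcam1 (-1.08), Icam1 (-0.67), Sele (-1.89) and Selp (-0.48) turned negative and those of Icam2 (1.14) and Cd34 (0.20) positive, and with the median marker that of Vcam1 was -0.22.

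The 8 chronic libraries were also read together, RA and CS without subtracting group means, although the score was 0.50 higher on average in chronic CS. Over them, Vcam1 and the score had a Pearson r of 0.829 (exact permutation p = 0.013, adjusted p = 0.373 over all genes tested), Spearman's rho of 0.833 (exact p = 0.0154, adjusted p = 0.385) and r = 0.825 without chronic CS M2 and M3, the libraries farthest from the median score. Alcam had r = 0.845 (exact permutation p = 0.00905, adjusted p = 0.347), rho = 0.881 (exact p = 0.00724, adjusted p = 0.356) and r = 0.608 without these 2 libraries. Cd34 ran the other way, with r = -0.83 (exact permutation p = 0.00866, adjusted p = 0.346), rho = -0.929 (exact p = 0.00223, adjusted p = 0.349) and r = -0.556 without them. Selp had r = 0.688 (exact permutation p = 0.0553, adjusted p = 0.499), rho = 0.857 (exact p = 0.0107, adjusted p = 0.373) and r = 0.526 without them. Of all genes tested, 2214 had an unadjusted p under 0.05 and 0 passed after adjustment, the smallest adjusted p by the exact permutation test being 0.266. Icam1, Icam2, Sele and Cd99l2 had r between -0.424 and 0.392. As differences from group means over the same 8 libraries, r was 0.829 for Vcam1, 0.825 for Selp, 0.725 for Alcam and -0.901 for Cd34, and 0.573 for Icam1, 0.56 for Sele, 0.053 for Cd99l2 and -0.035 for Icam2, given as a description. All of these values hold for the mean log2 CPM of the markers alone. No r with the summed markers is given, and with that sum the slopes of Vcam1 and Cd34, above, turned sign.

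**Figure D4:**
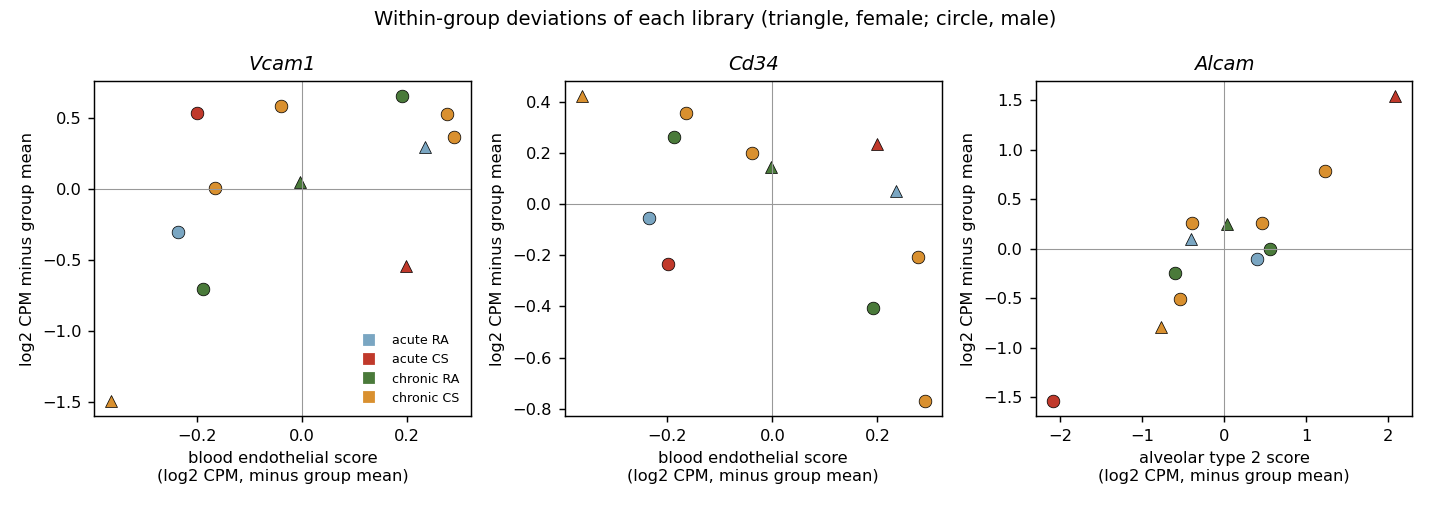
Log2 CPM of Vcam1 and Cd34 against the blood endothelial score and of Alcam against the alveolar type 2 score, all as differences from the group mean, 1 point per library (triangles female, circles male, colours for groups). Among the chronic libraries Vcam1 lies higher and Cd34 lower where this score, the mean log2 CPM of the markers, is higher. The slopes of both genes turned sign with the summed markers. Alcam runs from acute CS M at the lower left to acute CS F at the upper right.

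Scores of other cell types, read the same way as differences from group means over the 12 libraries, are given as descriptions, since these points share libraries and the scores move together (r = 0.702 between the blood endothelial and the leukocyte score). Alcam had r = 0.93 with alveolar type 2 and 0.91 with alveolar type 1 markers and -0.82 with lymphatic markers, against 0.65 with blood endothelial ones. Without the acute CS libraries these became 0.75, 0.697 and -0.421, and 0.686 with the blood endothelial markers. With the leukocyte score Alcam had 0.617 over the 12 libraries and 0.857 without acute CS, then above both alveolar scores. Selp had r = 0.70 with the blood endothelial and 0.71 with the leukocyte score, and -0.05 with the platelet score. Vcam1 had 0.58 and 0.56 with the first pair and 0.59 with the lymphoid score. Without the acute CS libraries these became 0.814, 0.697 and 0.649. For Icam1 the highest were 0.74 with lymphoid and 0.70 with type 2 markers, and for Cd34 the farthest from 0 was -0.71 with mesenchymal markers. Without acute CS Cd34 had -0.762 with blood endothelial, -0.742 with type 2 and -0.686 with mesenchymal markers. Cd99l2 stayed between -0.47 and 0.44 with all 10 scores.

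**Figure D5:**
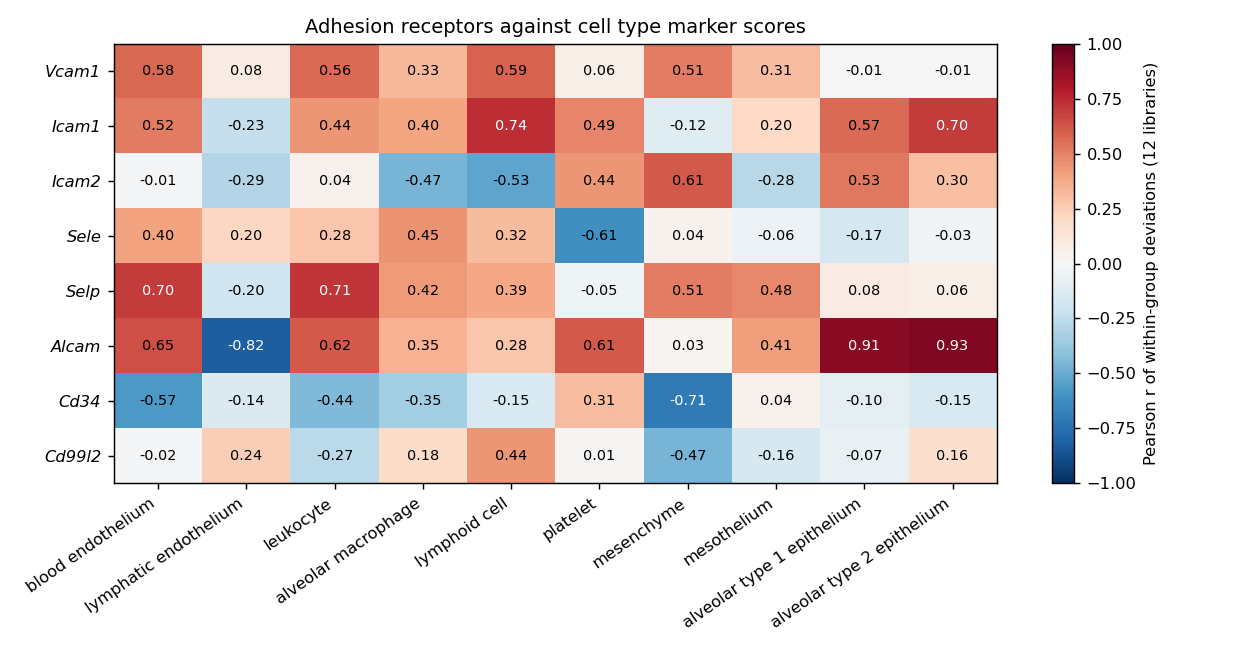
Pearson r over the 12 libraries between each of the 8 genes (rows) and 10 cell type marker scores (columns), both as differences from group means, with red for positive and blue for negative values. The alveolar scores with Alcam (0.91 and 0.93) are the highest, and the row of Cd34 is negative for blood endothelium (-0.57) and mesenchyme (-0.71).

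Genes whose differences from group means were most like those of a receptor, among genes with a mean of at least 10 CPM, were named by their Pearson r over the 12 libraries. For Alcam these were the epithelial keratin gene Krt7 (0.979), the alveolar tight junction gene Cldn18 (0.971) and Sftpc (0.97). For Selp they were Adgrg6 (0.932), Emp3 (0.92) and Specc1 (0.906), and for Vcam1 Cdc42se1 (0.967), Siah1a (0.95) and Polr2d (0.948). Icam1 was nearest to Npc2 (0.959) and Tmbim6 (0.959), Cd34 to Dnmt3b (0.955) and Snapc4 (0.954) and Icam2 to Tra2a (0.962) and Ppp1r10 (0.918). Sele was nearest to Ap1m1 (0.975) and Cd99l2 to Vcpip1 (0.981). These are the highest values of a search through all such genes over 12 libraries, and are given as a description.

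The other genes of the adhesion pathway were read from lists. Of 18 further endothelial adhesion and transmigration genes tested, 5 were called higher in acute CS and 2 lower. The junctional genes Jam2 and Esam rose by log2 fold changes of 4.07 and 3.16, Mcam by 3.26, the hyaluronan receptor Cd44 by 3.97 and the cadherin gene Cdh5 by 0.94. Nectin2 fell by 1.21 and the scavenger receptor gene Stab1, typical of lymphatic and sinusoidal endothelium, fell by 0.97 on the log2 scale. Of 10 genes that build selectin ligands, such as fucosyltransferases and sulfotransferases, 1 was called, B3gnt3 with a log2 fold change of 2.69. Of 12 cytokine and thrombin receptor and NF-kB genes that act on transcription of the receptors, 2 were called higher: the TNF receptor gene Tnfrsf1b (2.20) and Tnfaip3 (2.66), a feedback inhibitor of NF-kB that is itself a target of it.

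On the leukocyte side of the same contacts, 8 of 12 counter-receptor genes were called higher in acute CS and 4 were not. The 8 included the integrin chains Itgal (4.05) and Itgb2 (3.98) of LFA-1, which binds ICAM-1 and ICAM-2, the mucosal homing integrin chain Itgb7 (4.01), the P-selectin ligand gene Selplg (3.82) and Cd6 (5.67), which binds the product of Alcam, all as log2 fold changes. All 8 leukocyte markers were called higher too, among them Ptprc, which encodes CD45, at 154 and 284 CPM in acute CS M and F against 19.8 and 19.6 CPM in acute RA F and M. Among the 12 blood endothelial markers 5 were called higher and among the 8 lymphatic markers 3 lower, 1 of them Prox1. In chronic CS 0 genes of these lists were called by edgeR's quasi-likelihood test.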

How the data were processed

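The authors checked reads with FastQC 0.11.9 and Minion, trimmed adapters with Skewer, aligned them to GRCm38 with STAR and deposited its gene counts, raw and unscaled, in 1 file per library. Which annotation release and which strand column they used is not given in the sources used here, and genes on the opposite strand overlap Vcam1, Icam1, Selp, Cd34 and Cd99l2. Names and exon lengths came from GENCODE M21. Identifiers without a name there held at most 0.011% of counts.

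From the counts, genes that filterByExpr kept (21440 of 52636) were fitted in edgeR 4.0.16 (R 4.3.3) with TMM factors, all 12 libraries by group in 1 quasi-likelihood fit and Benjamini-Hochberg adjustment over all genes, with 0.05 as the limit. The slope on the blood endothelial score had group in the fit. Log2 CPM for scores used a prior count of 2. Permutation tests (scipy 1.17.1) were exact and two-sided, on log2 CPM. The code was tested on simulated data. The alternatives were DESeq2 1.42.0, no filter, library size scaling, sex, score covariates, a replicate block, the compared groups alone and leaving out libraries. The 8 genes and the lists were chosen with earlier results of these data known. Named beside the 8 genes were list genes past the limit, the defining markers, the highest and most changed list genes, and up to 3 genes most like each receptor. Replicates of a group differed by more than sampling noise, with chi-square per degree of freedom of at least 28.6. The floor of 3 counts covers counting error only.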

Additional observations from a re-analysis of the deposited data

Results flagged for a closer look

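The Vcam1 level of the chronic CS female library, 6.67 CPM, stood apart from the 4 male libraries of its group (18.9 to 28.3 CPM): the gap to its nearest neighbour took up 0.722 of the range of log2 CPM, above Dixon's critical value of 0.71 for 5 libraries. It was the 1 gene of the 8 looked at to pass, and by little. Chance alone marks about 1 in 20 groups, so a mark among 8 is less unusual than that.

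The CS effect on Icam1 was larger at the acute than at the chronic time point by 2.27 on the log2 scale, and that on Cd34 by 2.52, by the test of the difference itself. Acute libraries were pooled from several mice and chronic ones were not, and the acute CS libraries held more blood endothelial and leukocyte marker RNA. With the blood endothelial score in the fit the difference was 1.27 for Icam1 and 4.02 for Cd34, and with the leukocyte score 1.59 and 3.45, and neither gene was called. The part of pooling cannot be told apart from length of exposure.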

How the results depend on the processing

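With DESeq2, 1926 genes were called in the acute comparison (745 in the report's fit), 5 of them receptor genes (4, Icam2 added), 524 in the chronic one (0), 253 between RA groups (0) and 916 for the difference between the acute and chronic effects (97), 5 of the latter among the 8 receptor genes. With no filter on low counts the last 3 counts were 10, 6 and 191, with 4 receptor genes. Fitting the compared groups alone gave 139 genes in the acute comparison, 2 of them receptor genes, and 42 between RA groups. Sex as a covariate left 1 receptor gene and 21 genes for the difference of effects. With the blood endothelial or the leukocyte score as a covariate the acute comparison and the difference of effects had 0 receptor genes and 0 genes called. Without one library the acute comparison had 0 to 4 receptor genes and 3 to 858 genes, the chronic one 0 to 4 genes, and the difference of effects 0 to 3 receptor genes and 0 to 263 genes. Of these counts the acute one was lowest without acute RA M (3 genes), and it was 79 without acute RA F and 175 without acute CS F. Receptor genes called for the difference of effects were 0 without acute CS F, acute RA F or M, chronic RA M1, M2 or F, or chronic CS M4. Chronic CS F, M1 and M2 had lower total counts than M3 and M4. With chronic CS F, M1 and M2 as the chronic CS group, 1 gene was called in the chronic comparison and 1 receptor gene for the difference of effects, and with M3 and M4 16 genes were called in the chronic comparison and 3 receptor genes (Icam1, Icam2 and Cd34) for the difference of effects. The slope on the blood endothelial score was called for 1 gene over the 8 chronic libraries alone.

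With the replicate block, 73 genes and 2 receptor genes (Icam1 and Cd34) were called in the acute comparison and 0 for the difference of effects. Libraries with the same sex and number correlated by -0.042 to 0.069 in their differences from group means, so they share a label and no pairing was shown.

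The acute log2 differences of Vcam1, Icam1, Selp and Cd34 were positive in all 13 alternatives. Without the score covariates they were 3.32 to 4.40 for Vcam1, 2.03 to 2.53 for Icam1, 3.87 to 5.15 for Selp and 2.0 to 2.47 for Cd34. Alcam was -1.16 without acute CS F. Chronic differences without the score covariates, none called, were -0.73 to 1.13 for Sele, 0.36 to 1.17 for Vcam1 and 0.096 to 0.60 for Selp. Those of Icam1 (-0.23 to 0.35) and Cd99l2 (-0.30 to 0.11) also had either sign. Sele and Selp at a few CPM rest on few reads in RA, and 2 libraries a group limit the acute comparison.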
